A study of Mus musculus with 18 samples.

Results

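RNA recovered by a ribosome pull-down aimed at endothelial cells of the mouse choroid was compared with that recovered in the same way from the retina. The comparison used the 3 choroid positive libraries and the 3 retina positive libraries, chosen by their labels, which are 6 of the 18 libraries in the series; the rest are brain and the inputs of all 3 tissues. Every animal, in choroid and retina alike, was Tie2-cre+; NuTRAP+, and the samples here include no animal without these alleles; the deposited tables also tag all these libraries WT and NT, without saying what the tags stand for. NuTRAP is a reporter that, in cells with Cre, tags ribosomes with GFP, and the positive fraction is the RNA pulled down with an antibody to GFP. In TRAP (translating ribosome affinity purification) the input is the lysate before that pull-down. The Tie2 promoter that drives Cre is active in endothelium and is also known to be active in blood cell lineages. A choroid library held the tissue scraped from a pair of fellow eyes together with the retinal pigment epithelium (RPE), and a retina library held a pair of retinae. The labels call the libraries of a tissue biological replicates and number them 421, 953 and 960 in both tissues; no treatment is named, and neither age nor sex is given in the sources used. Genes were joined by identifier over the 10704 listed in both tissues' tables, out of 11718 in the choroid table and 12369 in the retina table, so 1014 genes listed for choroid and 1665 listed for retina were not tested.

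The choroid and the retina hold capillary beds of contrasting design. The choriocapillaris, which feeds the outer retina through the RPE, is fenestrated: its thin walls carry pores bridged by diaphragms built from the protein Plvap, and it is kept in that state by VEGF made by the RPE. Retinal capillaries form the inner blood-retina barrier, in which tight junctions seal the space between cells, vesicle traffic is low, and carriers such as Slc2a1 and Slc7a5 move nutrients across; Wnt/beta-catenin signalling through Norrin and Fzd4 is known to build and maintain this barrier.

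Levels below are CPM, the counts of a gene relative to all counts joined, scaled by TMM, edgeR's trimmed-mean factor, and every fold change is choroid over retina on the log2 scale, fitted by edgeR's quasi-likelihood test with Benjamini-Hochberg adjustment over all 10704 genes. Total counts over the listed genes were 2649095 to 4587921 in the choroid positive libraries and 6260958 to 11071373 in the retina positive libraries. Correlations of log2 CPM across genes were 0.925 to 0.95 among choroid libraries, 0.936 to 0.973 among retina libraries and 0.462 to 0.511 between the tissues. At an adjusted p under 0.05, 3443 genes (32.2% of those tested) were higher in choroid and 3661 (34.2%) were lower. Of these, 2442 (22.8%) were higher by at least 2-fold and 2758 (25.8%) were lower by at least 2-fold. Groups without overlap between the tissues' libraries were common among called genes, at 3330 of those higher and 3592 of those lower. With library size alone as the scale, 40.5% of the calls were higher in choroid, against 48.5% here. With a background this high, a called gene is common, and the counts in each group of genes on the TMM scale are to be read against 32.2% and 34.2%. All of these are bulk measurements, in which fewer cells of a type and less RNA per cell cannot be told apart.

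**Figure D1:**
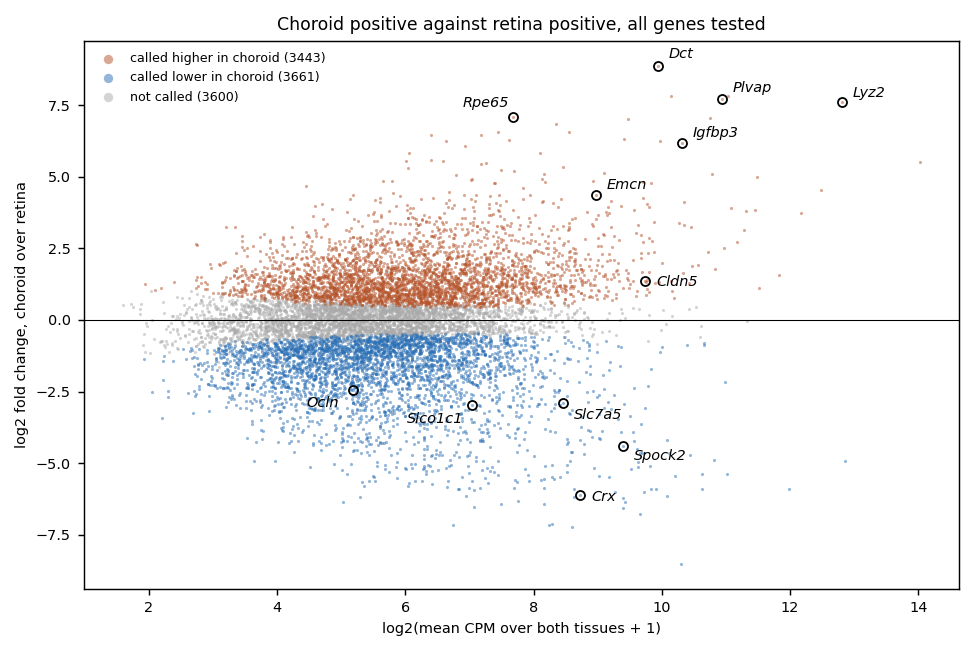
Log2 fold change, choroid positive over retina positive (vertical axis), against the log2 of the mean CPM of both tissues plus 1 (horizontal axis) for the 10704 genes tested; each point is a gene, coloured by its call, and circled genes are named in the text. Calls filled both sides, with 3443 genes higher and 3661 lower in choroid. Plvap and Igfbp3 stood near the top. Slc7a5, Slco1c1 and Spock2 were on the lower side, Slc7a5 at −2.89 and Spock2 at −4.39, while other genes reached as low as −8.50 (A930011O12Rik).

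Plvap, the diaphragm protein of endothelial fenestrae, had 4599, 3117 and 3957 CPM in the choroid libraries numbered 421, 953 and 960, against 16.03, 23.01 and 17.3 CPM in the retina libraries with those numbers. Every choroid library was far above every retina library, and the log2 fold change was 7.70 ± 0.42 (SE; edgeR adjusted p = 1.42e-07). Plvap lies on chromosome 8 (mm10 71497753 to 71511769, minus strand). It was enriched over input in choroid (log2 3.77) and was not above input in retina (log2 0.32). Endomucin (Emcn), a sialomucin of capillary and venous endothelium on chromosome 3, had 951, 1005 and 922 CPM in choroid, against 52.8, 53.7 and 32.4 CPM in retina. Its log2 fold change was 4.37 ± 0.29 (edgeR adjusted p = 3.16e-07), and unlike Plvap it was enriched over input in both tissues, by 3.48 in choroid and 5.82 in retina on the log2 scale.

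The 2 barrier markers stood the other way round. Slc7a5, the large neutral amino acid transporter on chromosome 8, had 99.3, 70.2 and 79.3 CPM in choroid, against 845, 625 and 382 CPM in retina (log2 fold change −2.89 ± 0.31, edgeR adjusted p = 7.86e-06). Occludin (Ocln), a strand protein of tight junctions on chromosome 13, had 12.2, 14.4 and 5.29 CPM in choroid, against 82.9, 57.1 and 40.4 CPM in retina (−2.46 ± 0.36, edgeR adjusted p = 8.8e-05). For both, the lowest retina library, number 960, lay above the highest choroid library. Both were enriched over input in retina (log2 3.39 and 4.78) and not in choroid (−1.12 and −0.36). All 4 markers followed the tissue labels, but they were chosen with earlier results of these data known, so this is not a separate check.

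The promoter windows of 1 gene of each direction, and of the only Wnt list gene with a TCF/LEF match, are shown because the tissues differed at these genes. They are RefSeq windows on GRCm38.p6 (mm10), running from 250 bases before the gene's start to 50 bases after it, in lower case. Capitals mark the letters CTTTGAT, the core recognised by TCF/LEF factors, which carry the Wnt signal to DNA, read on either strand; ATCAAAG is that core on the other strand. Emcn is at chr3:137340828-137341127 on the plus strand, Ocln at chr13:100552669-100552968 on the minus strand, and Tnfrsf19, a TNF receptor family gene described below, at chr14:61037938-61038237 on the minus strand.
Emcn: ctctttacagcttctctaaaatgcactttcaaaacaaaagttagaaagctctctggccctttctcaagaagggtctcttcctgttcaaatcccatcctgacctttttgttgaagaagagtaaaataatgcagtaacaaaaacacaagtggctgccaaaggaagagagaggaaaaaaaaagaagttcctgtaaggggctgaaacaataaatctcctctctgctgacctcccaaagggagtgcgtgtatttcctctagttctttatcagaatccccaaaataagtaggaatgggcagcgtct
Ocln: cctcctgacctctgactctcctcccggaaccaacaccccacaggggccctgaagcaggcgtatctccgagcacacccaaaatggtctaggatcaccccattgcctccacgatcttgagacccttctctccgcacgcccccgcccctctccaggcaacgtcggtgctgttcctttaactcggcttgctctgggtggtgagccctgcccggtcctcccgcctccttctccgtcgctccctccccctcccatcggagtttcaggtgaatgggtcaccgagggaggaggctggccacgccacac
Tnfrsf19: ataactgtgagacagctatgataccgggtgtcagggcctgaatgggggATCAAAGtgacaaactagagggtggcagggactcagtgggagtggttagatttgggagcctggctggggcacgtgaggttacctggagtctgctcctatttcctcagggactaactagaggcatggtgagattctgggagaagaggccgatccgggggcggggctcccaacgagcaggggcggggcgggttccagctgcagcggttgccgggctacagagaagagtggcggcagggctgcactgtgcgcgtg
The Emcn window was 41.0% G and C, the Ocln window 64.0% and the Tnfrsf19 window 60.7%, against a median of 52.7% over all windows in the table. The core stood in the Tnfrsf19 window 202 bases before the start, in 1 of the 2 windows listed for that gene, and in neither of the other windows shown. Over all genes, 1225 of 32851 windows (3.73%) held the core on either strand. Of the 16 Wnt list genes found in the table, out of 26 measured, Tnfrsf19 alone had a window with it, and 0 of the 6 and 0 of the 9 matched genes with the largest input-enriched differences in either direction did. These are matches of letters in short windows, with no reading of factor binding.

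**Figure D2:**
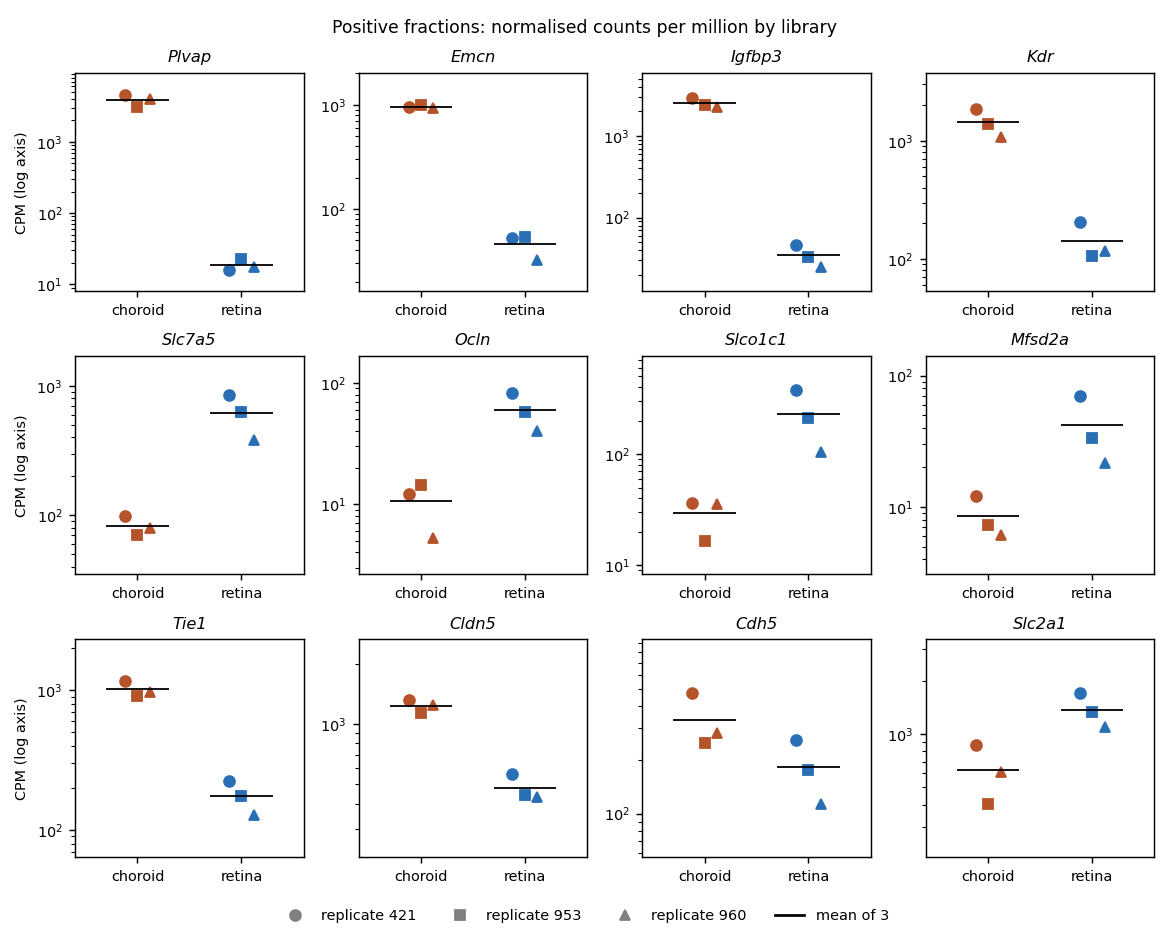
CPM on a log axis (each panel has its own range) for 12 genes in the 3 choroid positive libraries, left, and the 3 retina positive libraries, right; symbols mark the replicate number and the bar is the mean of 3. Plvap, Emcn, Igfbp3 and Kdr were higher in all choroid libraries, Slc7a5, Ocln, Slco1c1, Mfsd2a and Slc2a1 were lower in all choroid libraries, and the groups overlapped for Cdh5. Tie1 and Cldn5 were higher in all choroid libraries.

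General endothelial genes were also higher in choroid, and this bears on every group that follows. Of 36 measured genes that mark endothelium in most vascular beds, 30 were higher, 0 were lower and 6 were not called; their median log2 fold change was 2.04, against −0.04 over all genes. Their summed level was 20122, 16691 and 16019 CPM in the choroid libraries and 7864, 5525 and 4492 CPM in the retina libraries, with no overlap. By share of the joined counts, unscaled, they held 1.429% to 1.941% of choroid libraries and 0.479% to 0.854% of retina libraries. All 36 were enriched over input in choroid and 35 were in retina, against 12.4% of the choroid table and 8.68% of the retina table over all genes. Clec14a, a C-type lectin of endothelial surfaces, had 413, 297 and 269 CPM in choroid, against 36.5, 34.9 and 35.6 CPM in retina (3.19 ± 0.23, edgeR adjusted p = 4.66e-07). Among the 6 that did not pass the test were members of the VEGF and Tie pathways. Flt1, a VEGF receptor that can act as a decoy, had 1093, 654 and 501 CPM in choroid, against 920.0, 465 and 325 CPM in retina (0.40 ± 0.40). Ptprb, the phosphatase that restrains Tie2, had 1204, 732 and 774 CPM, against 1004, 634 and 459 CPM (0.37 ± 0.33). Flt1 passed the test without retina library 421 (0.93, edgeR adjusted p = 0.0398).

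Each endothelial group is therefore given on a second scale, on which library size is the summed count of these 36 genes, so that a fold change reads as a difference per unit of endothelial transcript. This scale moved the median of all 10704 genes to −1.66, and left 514 of them higher and 7781 lower. A lower call is thus common on this scale. Counts of a group on it are to be read against these numbers, and medians against −1.66. Ribosomal protein genes, which every cell uses, were higher in choroid in 26 of 26 cases on the library scale (median 1.46), and 0 of them was called in either direction on the endothelial scale (median −0.16); reads of these genes may be shared with pseudogenes. Among the 492 genes enriched over input in both tissues, 413 were higher and 10 lower in choroid on the library scale (median 1.91), and 177 were higher and 92 lower relative to endothelial transcripts (median 0.32).

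Genes of fenestrated endothelium had the highest median among the 13 endothelial lists. Of 13 listed, 11 were measured, 10 were higher and 1 was lower (median 4.15); relative to endothelial transcripts 8 were higher and 1 lower (median 2.44). All 11 were enriched over input in choroid, and 6 were in retina. Igfbp3, a secreted carrier of insulin-like growth factors, had 2924, 2359 and 2262 CPM in choroid, against 45.8, 33.05 and 25.1 CPM in retina (6.18 ± 0.38, edgeR adjusted p = 2.25e-07). It was enriched over input in both tissues (log2 3.75 in choroid and 4.78 in retina). Ppap2a and Ppap2b, phosphatases that break down lipid phosphates outside the cell, differed by 4.81 ± 0.26 and 4.15 ± 0.32. Ehd4, which shapes endocytic membranes, had 1199.7, 1108 and 913 CPM, against 84.0, 73.8 and 85.7 CPM (3.72 ± 0.26, edgeR adjusted p = 4.13e-07). Both groups were tight for this gene and did not overlap.

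Car4, a carbonic anhydrase held on the luminal membrane of choriocapillaris, and Cd34, a sialomucin of capillary endothelium, were higher on the library scale by 1.86 ± 0.34 and 1.67 ± 0.25, and stood at 0.32 and 0.07, uncalled, relative to endothelial transcripts. Vwa1, an extracellular matrix protein, was the member that was lower, with 91.6, 67.7 and 81.9 CPM in choroid, against 179, 151 and 137 CPM in retina (−0.95 ± 0.20, edgeR adjusted p = 0.00138). Esm1, a proteoglycan secreted by VEGF-stimulated endothelium, was listed in the choroid table only, at 495.6, 486.6 and 288.1 CPM over that table's own total without TMM, and was not tested.

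Among the receptors and co-receptors of the VEGF and Tie pathways, all measured ones but Flt1, given above, were higher in choroid on the library scale. Kdr, the main signalling VEGF receptor, had 1861, 1383 and 1069 CPM in choroid, against 205, 107 and 118 CPM in retina (3.33 ± 0.35, edgeR adjusted p = 6.59e-06). The co-receptor Nrp1 had 1224, 1155 and 981 CPM, against 78.4, 54.8 and 53.7 CPM (4.17 ± 0.29, edgeR adjusted p = 3.62e-07). Neither gene had overlapping groups, and both remained higher relative to endothelial transcripts, by 1.76 and 2.59. Over input, Kdr was enriched in choroid (log2 3.69) and not in retina (0.19). Tie1, the orphan partner of Tie2, was higher by 2.54 ± 0.28, and Nrp2, a co-receptor linked to veins and lymphatics, by 2.10 ± 0.21; on the endothelial scale they stood at 0.97 and 0.49, and the call of Nrp2 was lost. In all, 6 of 11 measured members were higher and 1 was lower (median 0.86, and −0.73 relative to endothelial transcripts, with 3 higher and 4 lower). The 1 that was lower, Vegfa, the ligand, is named after its values were seen: it had 93.9, 96.1 and 124 CPM in choroid, against 298, 271 and 205 CPM in retina, and was below input in choroid (log2 −2.07). The ligands Angpt1, Angpt2 and Pgf were listed for choroid only.

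**Figure D3:**
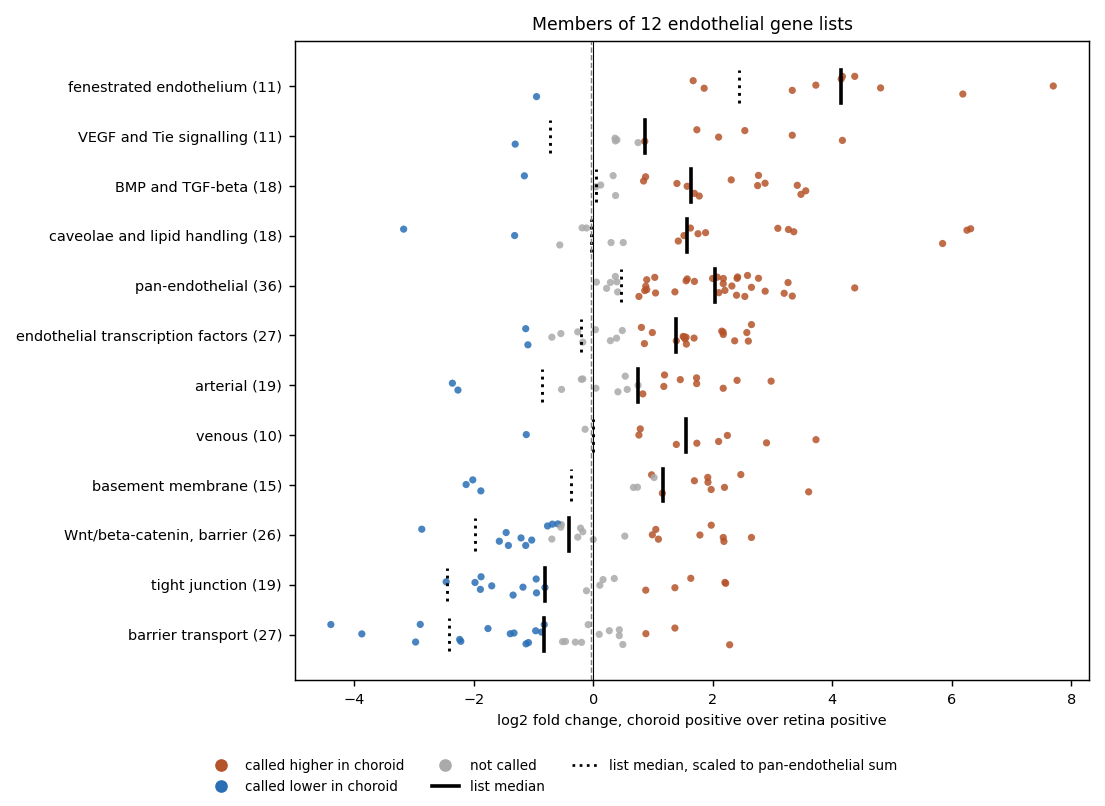
Log2 fold change, choroid positive over retina positive, of each measured member of 12 endothelial gene lists (number of members in brackets); points are genes coloured by call, the solid bar is the list's median and the dotted bar its median relative to pan-endothelial counts. Fenestrated genes had the highest median on both scales (4.15 and 2.44). Barrier transport and tight junction genes had the lowest, at −0.82 and −0.81 by CPM, and −2.42 and −2.45 relative to pan-endothelial counts. Over all genes the medians on these scales were −0.04 and −1.66.

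Genes of the barrier transport list, which also holds non-carriers such as Cldn5, Spock2 and Tfrc, were more often lower than higher in choroid. Of 27 measured, 14 were lower, 3 were higher and 10 were not called (median −0.82). Relative to endothelial transcripts 24 were lower and 0 higher (median −2.42), where 7781 of all 10704 genes were lower (median −1.66). In retina 19 of the 27 were enriched over input, in choroid 6. Slco1c1, which carries thyroxine, had 36.3, 16.6 and 35.2 CPM in choroid, against 378, 210.3 and 104 CPM in retina (−2.97 ± 0.44, edgeR adjusted p = 9.34e-05). Mfsd2a, the lysolipid transporter that keeps vesicle traffic low in barrier endothelium, had 12.2, 7.34 and 6.17 CPM, against 70.0, 33.4 and 21.8 CPM (−2.23 ± 0.44, edgeR adjusted p = 0.000714). In both genes retina library 421 was the highest and retina library 960 the lowest of its tissue, and the groups did not overlap.

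The proteoglycan Spock2 gave the lowest value of the list, with 115, 39.6 and 26.0 CPM in choroid, against 1862, 1158 and 819 CPM in retina (−4.39 ± 0.55, edgeR adjusted p = 2.47e-05). Slc7a1, a cationic amino acid carrier, and Slco1a4, an organic anion carrier, were lower, with log2 fold changes of −1.76 ± 0.34 and −1.33 ± 0.32. Slc38a3, a glutamine carrier, Tfrc, the transferrin receptor, and Lrp8, an apolipoprotein E receptor, were also lower (−3.87, −2.22 and −1.39), and none of these 3 was enriched over input in retina, at log2 0.27, −0.29 and 0.36.

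The glucose transporter Slc2a1 had 870.2, 404 and 615 CPM in choroid, against 1706, 1325 and 1090.2 CPM in retina (−1.12 ± 0.33, edgeR adjusted p = 0.00974). Its groups did not overlap, but without choroid library 953 the call was lost (−0.90, edgeR adjusted p = 0.0592). The efflux pump Abcb1a had 307, 145 and 179 CPM, against 701, 388 and 250.3 CPM, so that the highest choroid library stood above the lowest retina library (−1.08 ± 0.38, edgeR adjusted p = 0.0231). That call was lost without choroid library 953, choroid library 960 or retina library 421, with edgeR adjusted p of 0.0943, 0.0762 and 0.128. Slc6a6, the taurine carrier, and Bsg, the partner protein of monocarboxylate carriers, were lower (log2 −0.87 ± 0.30 and −0.82 ± 0.29), and those calls too rested on single libraries. Without choroid library 953 the edgeR adjusted p was 0.124 for Slc6a6 and 0.108 for Bsg, without retina library 953 it was 0.0579 and 0.0553, and for Slc6a6 it was 0.0738 without choroid library 960.

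A further set of carriers did not pass the test: Abcg2, an efflux pump, had 129, 140.5 and 80.2 CPM in choroid, against 108, 83.1 and 57.9 CPM in retina (edgeR adjusted p = 0.124), and Slc16a1, a lactate carrier, had 152, 184 and 293 CPM, against 356, 221 and 288 CPM (edgeR adjusted p = 0.158). Abcg2 passed without choroid library 960 or retina library 421 (0.68 and 0.73), and Slc16a1 without choroid library 960 (−0.80). The 3 members that were higher on the library scale were Slc1a1, a glutamate carrier (2.28 ± 0.24), Cldn5 and Slc3a2, the heavy chain that pairs with Slc7a5 (0.88 ± 0.23, and −0.73 relative to endothelial transcripts). Slc1a1 was below input in choroid (log2 −1.97) and was not enriched in retina (−0.335), and it was not called relative to endothelial transcripts (0.69). Slc3a2 had 499, 343 and 458 CPM in choroid, against 270.4, 214 and 222 CPM in retina, so the 2 chains of this transporter went opposite ways on the library scale. Slc19a3, a thiamine carrier, Slc38a5, a glutamine carrier, and Slc7a3, a cationic amino acid carrier, were listed in the retina table only.

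Among junction genes, occludin and its scaffold proteins were lower in choroid while several adhesion proteins were higher. Of 19 measured, 10 were lower and 5 higher (median −0.81). Relative to endothelial transcripts 14 were lower and 0 higher (median −2.45). That count is near the share over all genes on this scale, 7781 of 10704 lower (median −1.66). Tjp1, which ties strands to actin, had 121, 75.3 and 61.2 CPM in choroid, against 363, 268 and 208 CPM in retina (−1.70 ± 0.29, edgeR adjusted p = 0.000274). The tricellular junction genes Marveld2 and Lsr were lower as well (log2 −1.34 ± 0.36 and −0.95 ± 0.21). Cldn12, a claudin, and the scaffolds Magi1 and Magi3 were lower (log2 −1.88, −1.98 and −1.89); none of these 3 was enriched over input in retina.

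Claudin 5 (Cldn5), the main strand protein of barrier endothelium, did not follow occludin: it had 1324, 1134 and 1239 CPM in choroid, against 563, 439.7 and 431 CPM in retina (1.37 ± 0.26, edgeR adjusted p = 0.000575), with no overlap. Relative to endothelial transcripts its sign turned, to −0.23, uncalled. VE-cadherin (Cdh5) had 473, 249.99 and 284 CPM in choroid, against 259, 176 and 114 CPM in retina (0.88 ± 0.32, edgeR adjusted p = 0.0301, and −0.68 relative to endothelial transcripts); the groups overlapped. The call of Cdh5 was lost without choroid library 421 or retina library 953 or 960 (edgeR adjusted p = 0.138, 0.0853 and 0.11). Esam and F11r, adhesion proteins of the junction, were higher by 2.20 ± 0.23 and 2.22 ± 0.21, and Jam3 by 1.63 ± 0.22, while their relative Jam2 was lower (log2 −1.18 ± 0.26). On the endothelial scale Esam, F11r and Jam3 stood at 0.61, 0.57 and 0.02 and were not called.

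Genes of the Wnt/beta-catenin pathway, by which Norrin acts on retinal vessels, were split. Of 26 measured, 10 were lower, 8 higher and 8 not called (median −0.40). Over all genes 34.2% were lower and 32.2% higher, so the counts of this list are near those shares. Relative to endothelial transcripts 18 were lower and 1 higher (median −1.98). These counts too are near the shares over all genes, 7781 lower and 514 higher of 10704 (median −1.66). The genes that were lower include known feedback targets of the pathway. Apcdd1, a membrane inhibitor of Wnt, had 13.6, 5.43 and 5.73 CPM in choroid, against 80.2, 54.7 and 53.9 CPM in retina (−2.87 ± 0.35, edgeR adjusted p = 2.12e-05), with a wide gap between the groups. Tnfrsf19, the gene whose promoter is printed above, had 18.7, 12.8 and 14.1 CPM, against 65.7, 44.0 and 27.5 CPM (−1.57 ± 0.33, edgeR adjusted p = 0.00118), and was enriched over input in retina (log2 4.29) and not in choroid (−1.16). Foxq1, a forkhead factor of brain and retinal endothelium, was lower (log2 −1.13 ± 0.31), and so was the feedback inhibitor Nkd1 (−1.21 ± 0.31).

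Axin2, the scaffold that is a universal target of the pathway, had 34.4, 29.4 and 28.2 CPM in choroid, against 64.8, 36.8 and 46.8 CPM in retina (−0.68 ± 0.25, edgeR adjusted p = 0.0292); the groups did not overlap. The call was lost without choroid library 953, choroid library 960 or retina library 421, with edgeR adjusted p of 0.0687, 0.0748 and 0.145. Reck and Gpr124, co-receptors for Wnt7 ligands, were lower as well (−1.42 ± 0.33 and −0.76 ± 0.28). Of these, Gpr124 lost its call without choroid library 953 or 960 or retina library 421 or 953, with edgeR adjusted p of 0.0959, 0.102, 0.113 and 0.0606. Lef1, the TCF/LEF factor of barrier endothelium, had 41.2, 32.9 and 35.2 CPM, against 94.9, 43.7 and 38.9 CPM, and Fzd4, the Norrin receptor, had 56.4, 25.9 and 19.4 CPM, against 69.6, 48.5 and 32.2 CPM; neither passed (edgeR adjusted p = 0.0742 and 0.23). Lef1 passed without retina library 953 or 960 (−0.87 and −0.92) and Fzd4 without choroid library 421 (−1.15). The co-receptors of Fzd4 were higher on the library scale: Tspan12 by 1.78 ± 0.24 and Lrp5 by 1.05 ± 0.26, which became 0.12 and −0.54, uncalled, relative to endothelial transcripts. Tcf7l1 and Tcf7l2, TCF factors of the same family as Lef1, and Sox7 and Sox18, endothelial SOX factors, were higher by 1.97 to 2.65, and of these Sox18 alone remained called on the endothelial scale (1.06). Ctnnb1, beta-catenin itself, and Foxf2, a forkhead factor of brain vessels, were higher by 1.09 and 0.99 and stood at −0.49 and −0.58 relative to endothelial transcripts. Ndp, which encodes Norrin, was listed in the retina table only.

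BMP and TGF-beta genes, which act through Smad proteins on endothelial identity and matrix, were mostly higher in choroid. Of 18 measured, 13 were higher and 1 lower (median 1.63); relative to endothelial transcripts 6 were higher and 7 lower (median 0.04). Smad6, an inhibitory Smad induced by BMP, had 330.4, 180.1 and 232 CPM in choroid, against 26.1, 20.4 and 16.9 CPM in retina (3.56 ± 0.28, edgeR adjusted p = 7.67e-07). The BMP targets Id2 and Id3, which block differentiation factors, were higher by 3.48 ± 0.25 and 2.87 ± 0.25, and the ligand Tgfb1 by 3.41 ± 0.20. These 4 kept a call on the endothelial scale, at 1.95, 1.82, 1.30 and 1.77. The 1 lower member, Bmpr1a, a type I BMP receptor named after its values were seen, was below input in both tissues (log2 −1.83 in choroid and −0.70 in retina).

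Genes of caveolae and lipid handling were led by fatty acid carriers. Cd36, a fatty acid translocase, had 228, 195 and 159 CPM in choroid, against 3.15, 2.78 and 1.85 CPM in retina (6.25 ± 0.29, edgeR adjusted p = 1.1e-07). Fabp5 and Fabp4, which bind fatty acids in the cytosol, were higher by 6.31 ± 0.36 and 5.84 ± 0.48; Fabp4 had 242, 937 and 428 CPM in choroid, a wide spread, against 7.73, 10.7 and 9.52 CPM in retina. All 3 were enriched over input in choroid (log2 2.37 to 3.68) and in retina none was (−0.97 to 0.65). Of 18 measured, 11 were higher and 2 lower (median 1.57, and −0.04 relative to endothelial transcripts, with 6 higher and 7 lower). The lipoprotein receptor Vldlr was 1 of the 2 that were lower (−3.17 ± 0.21), with 27.4, 30.0 and 37.0 CPM in choroid, against 302, 274 and 271 CPM in retina; over input it stood at −2.22 in choroid and −0.46 in retina. The other, Pacsin2, a membrane-bending protein named after its values were seen, was lower (log2 −1.31 ± 0.21).

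Arterial genes had 9 higher and 2 lower of 19 measured (median 0.75), and relative to endothelial transcripts 2 higher and 10 lower (median −0.85). Venous genes had 8 higher and 1 lower of 10 (median 1.56), and on that scale 2 higher and 3 lower (median −0.01). Named after their values were seen, Alpl, an alkaline phosphatase, was with Jag1 the lower pair of the arterial list (−2.36), and Il1r1, an interleukin receptor, the lower venous gene (−1.12), which lost its call without retina library 960 (edgeR adjusted p = 0.0778). The Notch ligands of the arterial list differed in sign: Dll4 had 175, 144 and 133 CPM in choroid, against 40.1, 26.6 and 19.0 CPM in retina (2.41 ± 0.27, edgeR adjusted p = 1.12e-05), and Jag1 had 59.0, 41.2 and 41.4 CPM, against 281, 238 and 164 CPM (−2.26 ± 0.25, edgeR adjusted p = 1.08e-05). Dll4 was enriched over input in both tissues (log2 3.86 and 5.33) and Jag1 in neither (−0.15 and 0.06). Of the venous genes, Icam1, a leukocyte adhesion molecule, was higher by 3.73 ± 0.32 and Ephb4, the venous ephrin receptor, by 2.24 ± 0.23, and on the endothelial scale Icam1 alone of these remained called (2.05). Notch1, a receptor for both ligands, did not pass the test, with 178, 157 and 105 CPM in choroid, against 149.6, 93.4 and 54.7 CPM in retina (0.57 ± 0.32); it passed without retina library 421 (0.99).

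Most angiogenic tip genes could not be compared. Of 14 listed, 9 were in the choroid table only, among them Angpt2, Apln and Cxcr4, and 4 were measured, of which 3 were higher and 1, the sulfotransferase Chst1, was lower (median 2.56); relative to endothelial transcripts 2 were higher and 1 lower (median 1.00). Ramp3, a co-receptor for adrenomedullin, had 316, 328 and 322 CPM in choroid, against 18.04, 16.1 and 22.4 CPM in retina (4.09 ± 0.22, edgeR adjusted p = 1.42e-07), and Pdgfb, which recruits pericytes, was higher by 1.11 ± 0.24 (−0.44 relative to endothelial transcripts). Basement membrane genes had 9 higher and 3 lower of 15 (median 1.16, and −0.37 relative to endothelial transcripts, with 3 higher and 5 lower). The linker Nid1 was higher by 3.60 ± 0.40 and Col15a1, a collagen of the membrane's outer face, by 2.47 ± 0.36. The type IV collagens did not pass with edgeR: Col4a1 had 526, 205 and 277 CPM in choroid, against 297, 123 and 79.6 CPM in retina (edgeR adjusted p = 0.0638), with number 421 highest in both tissues, and it passed without choroid library 953 or retina library 421 (1.26 and 1.74). Other tools also called Col4a1 higher, with an adjusted p of 0.0226 by DESeq2 and 0.0365 by limma-voom. Agrn, Lamc3 and Sparcl1, named after their values were seen, were the lower members; Lamc3 lost its call with limma-voom (adjusted p = 0.067).

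Endothelial transcription factors had 17 higher and 2 lower of 27 measured (median 1.39, and −0.21 relative to endothelial transcripts, with 4 higher and 10 lower); the lower ones were Foxq1 and, named after its values were seen, Tbx1 (−1.09), which lost its call without choroid library 960 or retina library 421 (edgeR adjusted p = 0.0505 and 0.0694). Klf2, which responds to blood flow, had 889, 881 and 869.9 CPM in choroid, against 179, 131 and 128 CPM in retina (2.59 ± 0.25, edgeR adjusted p = 3.37e-06); the choroid libraries were close to each other and far from the retina libraries. Gata2 and Hhex, factors shared by endothelium and blood, were higher by 2.17 ± 0.25 and 2.15 ± 0.25, at 0.62 and 0.54, uncalled, on the endothelial scale. Sox17, an arterial factor and Wnt partner, had 75.6, 44.7 and 57.3 CPM, against 91.0, 65.0 and 45.4 CPM, and Epas1, the hypoxia factor HIF-2 alpha, had 1909, 1349 and 1425 CPM, against 1609, 1066 and 899.6 CPM; neither passed (edgeR adjusted p = 0.596 and 0.289).

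Antigen presentation and stress genes were higher in choroid as groups. Of 15 measured genes of MHC class I and its peptide supply, 14 were higher and 0 lower (median 3.02; 10 higher, 1 lower and 1.43 relative to endothelial transcripts). Psmb8, an immunoproteasome subunit, had 169, 257 and 275 CPM in choroid, against 30.6, 25.0 and 24.1 CPM in retina (3.13 ± 0.24, edgeR adjusted p = 7.19e-07). H2-T23, for which reads may be shared with other H2 genes, was higher by 3.37 ± 0.26. Interferon-response genes had 17 higher and 1 lower of 20 (median 1.46; 3 higher, 4 lower and −0.13 on the endothelial scale), led by Ifitm2, a membrane antiviral protein (4.11 ± 0.27); the lower one, Stat2, a signal transducer named after its values were seen, was at −0.68, and its call was lost without choroid library 421 or 953 or retina library 421 or 953 (edgeR adjusted p = 0.052, 0.0977, 0.133 and 0.0671). Immediate-early genes, transcription factors that many stimuli induce within minutes, had 11 higher and 0 lower of 14 (median 2.16; 5 higher, 3 lower and 0.53 on the endothelial scale). Jun, a subunit of AP-1, had 412, 476 and 462 CPM in choroid, against 82.7, 57.1 and 58.4 CPM in retina (2.77 ± 0.23, edgeR adjusted p = 1.27e-06), and was above input in choroid (log2 2.17) and not in retina (0.21). Macrophage genes, given next, were higher in the same libraries, and their part in these differences was not tested.

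Genes of other cells of each tissue were present in both pull-downs and differed strongly. Rod photoreceptor genes summed to 989 to 3906 CPM in the choroid libraries, against 39211 to 63368 CPM in the retina libraries; the choroid sum was lowest in number 421 and highest in number 960. All 20 rod genes measured were lower in choroid (median −5.19), and 0 of them was enriched over input in either tissue. Crx, the homeobox factor of photoreceptors, had 1.41, 13.1 and 23.8 CPM in choroid, against 684, 872 and 947 CPM in retina. In the choroid libraries RPE genes summed to 4510 to 9753 CPM, against 536 to 625 CPM in retina, with 11 of 13 higher, 1 lower (Otx2, a factor shared with photoreceptors, named after its values were seen) and 0 enriched over choroid input. Ttr, a thyroxine carrier made by the RPE, had 1374, 1896 and 3494 CPM in choroid, against 9.45, 9.27 and 11.5 CPM in retina, and Rpe65, the visual cycle isomerase, had 321, 323 and 569.5 CPM, against 5.73, 0.927 and 2.20 CPM. Both were highest in choroid library 960 and below input there (log2 −1.45 and −2.21).

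Melanocyte genes summed to 6103 to 7513 CPM in choroid and 328 to 373 CPM in retina, with 5 of 6 higher and 1 lower. Of the 14 listed, 7 more were in the choroid table only, among them Tyr, Tyrp1 and Pmel, and 1, Mc1r, in the retina table only, and these were not tested. Dct, an enzyme of melanin synthesis, had the highest log2 fold change of the 10704 genes, with 1895, 1882 and 2084 CPM in choroid, against 6.30, 2.01 and 4.05 CPM in retina (8.88 ± 0.47, edgeR adjusted p = 1.42e-07). Trpm1, a channel of melanocytes and of retinal bipolar cells, was the lower member, at 139, 98.3 and 128 CPM, against 309, 288 and 319 CPM. The 5 measured mural genes summed to 347 to 465 CPM in choroid and 672 to 1145 CPM in retina, with 1 higher and 2 lower. Of the 17 listed, 9 more were in the choroid table only, among them Anpep, Des and Tagln, and 0 in the retina table only. These were not tested and are not in the sums, so the sums do not give the direction of the whole list. The pericyte gene Rgs5 had 32.8, 1.28 and 11.01 CPM in choroid, against 282, 24.9 and 8.55 CPM in retina, so its groups overlapped; its difference of −2.74 ± 1.10 was −0.08 without retina library 421, and the call was lost without any 1 of retina library 421 and choroid libraries 953 and 960. DESeq2 and limma-voom did not call Rgs5 (adjusted p = 0.111 and 0.235). Oligodendrocyte genes summed to 2073, 550 and 992 CPM in choroid, against 93.8, 97.0 and 101 CPM in retina; Mbp, of myelin, had 886 CPM in choroid library 421 and 28.7 and 63.9 CPM in the other choroid libraries, against 24.9, 35.7 and 40.4 CPM in retina. Without choroid library 421 the log2 fold change of Mbp was 0.43, uncalled, against 3.28 with it, and limma-voom did not call it with that library in (adjusted p = 0.0861).

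Genes of macrophages, microglia and leukocytes in general were the other large class. In choroid 6 of 7 macrophage genes, 4 of 7 microglial genes and 5 of 5 shared leukocyte genes were enriched over input, against 6, 7 and 5 in retina; of the RPE and rod genes 0 were in choroid. Macrophage genes summed to 17712 to 26098 CPM in choroid, against 166 to 765 CPM in retina; all 7 measured were higher (median 3.85). Lyz2, the lysozyme of macrophages and neutrophils, had 12043, 12502 and 18300.0 CPM in choroid, against 33.2, 72.7 and 113 CPM in retina (7.61 ± 0.63, edgeR adjusted p = 1.09e-06). Cd74, the invariant chain of MHC class II, had 1342, 2143 and 2432 CPM, against 10.0, 27.8 and 39.0 CPM, and C1qa, of the complement system, had 1532, 1442 and 2055 CPM, against 34.9, 126 and 163 CPM. In each of these 3 genes retina library 421 was the lowest of all 6.

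Microglial genes summed to 6899 to 9549 CPM in choroid and 207 to 925 CPM in retina, with 6 of 7 higher. Tmem119, a gene known as particular to microglia, overlapped, at 84.1, 34.5 and 22.5 CPM in choroid, against 9.16, 51.0 and 52.8 CPM in retina (edgeR adjusted p = 0.608). Of the same list, P2ry12 and Siglech were in the retina table only, and Trem2, Aif1 and Fcrls in the choroid table only. These were not tested and are not in the sums. Genes shared by all leukocytes were higher in 5 of 5 measured cases (median 3.09), and the markers Cd52 and Coro1a were at 77.6 to 210.1 CPM in choroid, against 6.30 to 24.7 CPM in retina. Neither red cell genes, with 2 of 4 higher (both hemoglobins, among which reads may be shared), nor platelet genes, with 1 measured, formed a large sum, at most 1311 CPM, and 0 of these or of the neutrophil genes were enriched over choroid input. No lymphoid gene of the list was in both tables. Cone genes had 1 higher and 5 lower of 6, other retinal neuron genes 2 higher and 9 lower of 11, Müller glia and astrocyte genes 8 higher and 5 lower of 15, fibroblast genes 3 higher and 2 lower of 6 (Fbln1 and Gsn at 4.42 and 5.20, Fn1 and Col6a1 at −3.44 and −3.41), Schwann cell genes 3 higher and 2 lower of 5, mast cell genes 3 higher and 1 lower of 4, and neutrophil genes 1 higher and 1 lower of 2. Several of the cell type lists had members in 1 table only, which were not tested. For choroid these included 10 of 16 fibroblast genes, among them Col1a1, Dcn and Pi16, and 10 of 20 macrophage genes. Also listed for choroid only were 7 of 13 shared leukocyte genes, among them Ptprc and Itgb2. So were 4 of 12 mast cell genes, among them Mcpt4 and Cpa3. The RPE, Schwann cell and oligodendrocyte lists had 3 such genes each, of 18, 10 and 14. For retina they included 7 of 13 cone genes and 10 of 22 other retinal neuron genes. None of these lists had members in the other table only. The part of all these cells in the endothelial differences was not tested.

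**Figure D4:**
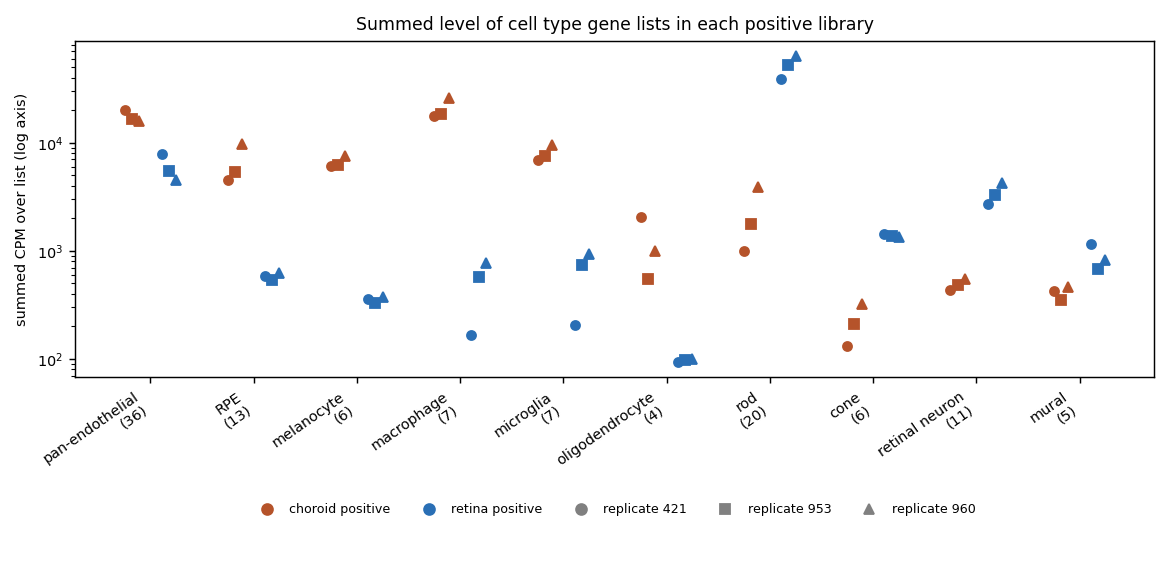
Summed CPM on a log axis over the measured members of 10 cell type lists (number of members in brackets) in each choroid positive library, left of each pair, and each retina positive library, right; symbols mark the replicate number. The pan-endothelial, RPE, melanocyte, macrophage, microglia and oligodendrocyte sums were higher in all choroid libraries, and the rod, cone, retinal neuron and mural sums were lower in all choroid libraries. Genes listed for 1 tissue only are not in the sums, among them 9 mural genes listed for choroid.

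Taking the genes with the largest differences that were also above the input of their own tissue, the choroid side held 12 genes with log2 fold changes of 5.23 to 7.82. Plvap and Igfbp3 are on the fenestrated list, Cd36, Fabp4 and Fabp5 on the caveolae and lipid list, Lyz2 and Cd74 on the macrophage list, Gpnmb on the melanocyte list and Apoe on the Müller glia and astrocyte list; Spp1, Cd24a and Lgals1 are on no list. Apoe, the main lipoprotein of macrophages and glia, had 26941, 29763 and 40651 CPM in choroid, against 377, 696 and 1064 CPM in retina, and Spp1, the matrix protein osteopontin, had 710.2, 493 and 725 CPM, against 3.15, 7.57 and 5.99 CPM. Cd24a, a surface glycoprotein, had 857, 773 and 582 CPM, against 9.88, 6.64 and 7.05 CPM (6.55 ± 0.32, edgeR adjusted p = 1.17e-07), and was enriched over input in choroid by 3.18 on the log2 scale.

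On the retina side the 12 genes were Peg3, Pnpla3, Snhg11, Rgs11, Xist, Lrrc16b, 4930470H14Rik, Slc2a4rg-ps, Dst, Acrbp, Gm14378 and Spock2, with log2 fold changes of −7.23 to −4.39, of which the barrier transport list held 1, Spock2. Dst, a large cytoskeletal linker, had 175, 90.4 and 88.1 CPM in choroid, against 2467, 5008 and 3013 CPM in retina (−4.89 ± 0.45, edgeR adjusted p = 2.3e-06). Peg3, an imprinted zinc finger gene, had 9.37, 0.00 and 5.29 CPM, against 537, 1013 and 751 CPM. Xist, the RNA that silences an X chromosome, had 84.3, 60.0 and 79.7 CPM in choroid, against 4443, 3709 and 1133 CPM in retina (−5.37 ± 0.52, edgeR adjusted p = 3.55e-06). All 6 libraries held Xist, and it stood below input in choroid (log2 −2.15) and above input in retina (1.39).

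The size of the input-enriched pools differed too. Of 3443 genes called higher in choroid, 955 were enriched over choroid input, and of 3661 called lower 140 were enriched over retina input. The same positive libraries enter the choroid-retina fit and the enrichment over input. Here and for the gene sets above, passing both is therefore not independent support. Over all 10704 genes measured in both tables, 1169 were enriched over input in choroid and 989 in retina. The calls are on the library scale. Of the 492 genes enriched in both tissues, 413 were higher and 10 lower on that scale, and 177 and 92 relative to endothelial transcripts.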

How the data were processed

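Positive-fraction RNA of choroid and retina was sequenced from 3 libraries each, made with the NEBNext Ultra II Directional kit per the labels. The deposited tables give expected counts per gene, of which 72.0% in the choroid table and 91.5% in the retina table were not whole numbers (tolerance 0.001); the authors' normalized columns, log2 values as deposited, were not used. Per the submitters' processing notes DESeq and the mm10 build were used; for aligner, counter and strand setting, the sources used here give nothing. Per the file headers, and as checked on the tables, a gene is listed where every library of 1 of the tissue's 2 fractions has at least 50 counts, so the genes joined here are those that passed in both tissues.

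Counts were rounded to whole numbers, joined by gene identifier, scaled by TMM and tested with edgeR 4.0.16 (R 4.3.3) by quasi-likelihood, with 4 residual degrees of freedom, Benjamini-Hochberg adjustment over all genes, with genes called where the adjusted p was under 0.05; the edgeR filter on low counts removed 0 genes. The script was tested on simulated data. SE is the fold change divided by the square root of F. Enrichment over input meant the same threshold and at least 1 on the log2 scale, in a separate fit within each tissue. Inputs did not enter the choroid-retina fit; enrichment was part of the naming rule below, and 1 alternative fit took the inputs in. The tables hold listed genes only, so their totals are not full library depths, and PCR reads without molecular identifiers are not independent molecules. Alternatives included DESeq2 1.42.0 and limma 3.58.1.

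The members and gene lists were chosen with earlier results of these data known, and some lists share genes. Genes were named by rule: the 12 called genes at either end of the log2 fold changes, given 10 CPM or more on average where higher, groups apart and enrichment over input; the 8 at either end when enrichment is not asked for; from each list, the 4 called members of lowest adjusted p, plus up to 2 that were not called, those of highest mean; the 4 markers; list members in 1 table only; and all members of the fenestrated, transport, junction and Wnt lists. Genes named otherwise are said to be. Files list genes under older symbols: Ppap2a, Ppap2b and Gpr124 were matched through the tables' own aliases. The promoter sequences are RefSeq's (GRCm38.p6), matched by gene ID.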

Additional observations from a re-analysis of the deposited data

How the results depend on the processing

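Counts of genes higher and lower in choroid stayed within 1.5 times of 3443 and 3661 under the scaling, filter, tool and sample alternatives run, with the exception of pan-endothelial scaling, which gave 514 and 7781. They were 2889 and 4251 with library size only, 3554 and 3572 with RLE scaling, 3560 and 3574 with DESeq2, 3445 and 3660 with limma-voom, and 2938 to 3416 and 3242 to 3756 with each library left out in turn. The replicate number was not taken to pair the tissues: the labels do not say whether a number marks an animal, and deviations from the group means correlated at 0.167 for number 421, 0.026 for 953 and 0.094 for 960, not all above 0.1. With a replicate block the counts were 3509 and 3728. Of the named genes, the block added calls of Col4a1, Notch1, Fzd4 and Abcg2 (edgeR adjusted p = 0.00168, 0.0135, 0.0294 and 0.036) and ended that of Mbp (0.102). By these deviations choroid libraries 421 and 960 correlated best with the retina library of their own number, and choroid 953 with retina 960. Library size only ended the call of Cdh5 (edgeR adjusted p = 0.0899) and added those of Lef1 and Slc16a1 (0.0272 and 0.0373); brain libraries in the fit added Lef1 (0.0358), and inputs in the fit added Col4a1 (0.0401) and ended Gpr124 (0.0653). Leaving out 1 library, Plvap was at 7.55 to 7.87, Emcn at 4.17 to 4.49, Slc7a5 at −3.15 to −2.60 and Ocln at −2.71 to −2.16, all called. Relative to endothelial transcripts the sign turned for Cldn5 (−0.23), Cdh5 (−0.68), Slc3a2 (−0.73), Ctnnb1 (−0.49), Lrp5 (−0.54), Foxf2 (−0.58), Pdgfb (−0.44), and, uncalled in the main comparison, Abcg2 (−1.07), Col4a1 (−0.48), Epas1 (−1.18), Flt1 (−1.13), Notch1 (−0.96), Ptprb (−1.18) and Tmem119 (−1.51). Tmem119 ranged over −0.41 to 0.67 with each library left out, at −0.41 without choroid library 421 and −0.12 without retina library 421, and was −0.85 without both, and Sox17 was 0.11 without retina library 421. With a library left out, the counts of called list members moved by over 1.5 times only where 2 or fewer were called in that direction; with brain libraries in the fit, fewer genes were tested, and 3 rod genes, all lower, and 6 RPE genes, 5 higher and 1 lower, were left with a call. The cause of the other changes was not tested, beyond the scale itself. Listing at 50 counts limits the comparison to genes seen in both tissues, which leaves out abundant genes as well as scarce ones, such as Esm1 with 763 to 2274 counts in the choroid libraries.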

Other observations

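Gene families chosen after their values were seen, with no test of the family, differed in direction. Proteasome subunit genes (Psm) had 33 of 37 members higher and 0 lower in choroid (median log2 fold change 1.17), and genes of respiratory complex I (Nduf) had 31 of 43 higher and 0 lower (median 0.95); relative to endothelial transcripts the Psm genes had 3 higher and 15 lower (median −0.46) and the Nduf genes 0 higher and 19 lower (median −0.71). Cathepsin genes (Cts), proteases of the lysosome, had 9 of 10 higher and 1 lower (median 3.09, and 1.42 relative to endothelial transcripts). Zinc finger genes named Zfp, among which reads may be shared, had 10 of 259 higher and 166 lower (median −1.02), and potassium channel genes (Kcn) 3 of 24 higher and 19 lower (median −2.75).

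The direction also followed the length of the gene in the genome. Among the 2141 genes with the shortest span (334 to 7929 bases), 47.4% were higher and 21.5% lower in choroid (median 0.52). Among the 2141 with the longest span (71014 to 2256181 bases), 21.0% were higher and 47.3% lower (median −0.53), and the 3 groups between had medians of 0.14, −0.01 and −0.30. This is a description across genes, which are not independent replicates.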
